A study of Mus musculus with 20 samples.

Results

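Astroglial nuclei of the neonatal dentate gyrus were chosen by their own signal in the postnatal day 5 (P5) single-cell assay for transposase-accessible chromatin (scATAC-seq), as the barcodes in which the astroglial genes Slc1a2, Slc1a3, Gfap, Aqp4 and Gja1 were most open. In peaks, 6785 P5 barcodes had above 10000 but under 100000 counts. The 10% with the largest share of their counts in peaks over these 5 genes (gene body plus 2 kb upstream, GRCm38) were kept, which gave 678 of the 6785 nuclei. They were set against the 3392 nuclei in the bottom 50% of the same share, with the 2715 nuclei between them (the middle 40%) given beside both. The 3 scATAC-seq libraries of the series (P5, 12 weeks and 24 weeks, written 12w and 24w) held 21359 barcodes in the same count range.

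The study followed cells of the neural stem cell (NSC) lineage through early aging of the hippocampus. All cells of the single-cell libraries used here came from Nestin-EGFP mice. In these, Nestin regulatory elements drive a green fluorescent protein in NSCs and other cells that use those elements. The dentate gyrus was dissected and treated with papain, and live EGFP+ cells were sorted with gates drawn on wild-type mice. There was 1 library per age and assay and the number of mice behind each was not given in the sources used here, so no difference between groups of nuclei could be set against a spread between animals. The intervals given with ratios are 95% intervals for counting error alone, and no p-value is given. Since the nuclei were selected on their open chromatin, all contrasts of open chromatin below are descriptions of the selected nuclei.

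Astrocytes clear glutamate and potassium from the space around synapses, move water through aquaporin channels at their endfeet, and are joined to each other by gap junctions. NSCs of the dentate gyrus are themselves radial, astrocyte-like cells that share many of these genes, and astrocytes, NSCs and ependymal cells all descend from radial glia. In scATAC-seq a transposase cuts DNA that is free of nucleosomes, so the number of fragments over a region in a nucleus is a measure of how open that region is.

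The share that defined the nuclei was small in every nucleus and had no gap at the cut. It ran from 0.0813% to 0.220% of counts among the astroglial nuclei, with a median of 0.0976%, against a median of 0.0525% in the middle 40% and 0.0229% in the bottom 50%. The last nucleus kept had 39 of 47946 counts over the 5 genes (0.08134%), and the next one, left out, had 43 of 52894 (0.08129%). Less than 10% above the cut lay 185 of the kept nuclei (27.3%), and 251 other nuclei (3.70% of all 6785) lay less than 10% below it. Depth was similar, with a median of 31978 counts in astroglial nuclei, 33019 in the middle 40% and 28860 in the bottom 50%. Of the 678 barcodes, 10 also occurred among the 12w barcodes in the range and 5 among those at 24w. Of all 6785, 88 and 38 did. Doublets were not called.

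**Figure D1:**
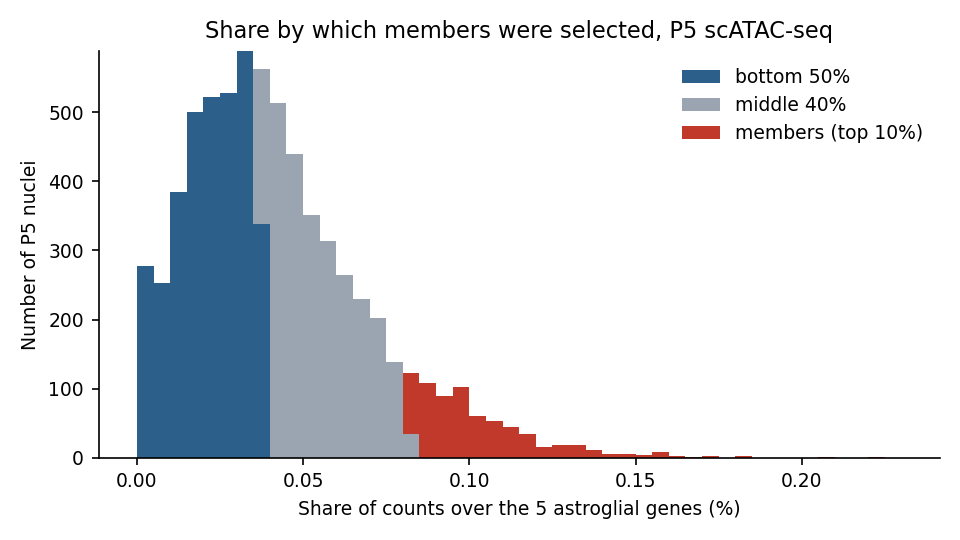
Distribution of the share of counts in peaks over Slc1a2, Slc1a3, Gfap, Aqp4 and Gja1 (percent of a nucleus's counts, horizontal axis) over the 6785 P5 nuclei (number of nuclei, vertical axis). Colours mark the astroglial nuclei (members), the middle 40% and the bottom 50%. The distribution has a long right tail, and the cut that keeps 678 nuclei falls within that tail with no gap on either side.

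The 5 genes used for the choice are given as a description, since they had to differ. Levels are the counts in peaks over a gene and its 2 kb upstream per 1000000 counts in peaks (CPM), summed over a group of nuclei, and are called gene activity here. Slc1a2, the main glutamate transporter of astrocytes (chr2:102658659-102790784 with 23 peaks in its window), stood at 361 CPM in astroglial nuclei, 198 in the middle and 86.4 in the bottom 50%. Slc1a3, the other astrocytic glutamate transporter, stood at 371, 201 and 84.7 CPM. The intermediate filament gene Gfap stood at 146, 85.3 and 37.1 CPM. The water channel gene Aqp4 (66.5 CPM against 9.88 in the bottom 50%) and the gap junction gene Gja1 (68.6 against 10.7 CPM) had the widest ratios, 6.73 and 6.39. At least 1 count over Slc1a2 was found in 97.6% of astroglial nuclei and 68.1% of the bottom 50%, and over Aqp4 in 60.9% and 14.2%.

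Away from the 5 genes, 112537 of the 143199 P5 peaks had at least 20 counts expected in the astroglial nuclei and were compared. At least 2-fold higher in astroglial nuclei were 17086 peaks (15.2%), and at least 2-fold lower were 25899 (23.01%). These percentages are the background against which smaller sets are read, and the median log2 ratio over all compared peaks was -0.17. The higher peaks held 17.0% of the counts of astroglial nuclei and 5.29% of those of the bottom 50%, and the lower peaks held 4.07% and 13.0%. The middle 40% lay above the bottom 50% at 16939 of the higher peaks and below it at 24876 of the lower peaks. The same bottom 50% defined these peaks, and the share over all compared peaks was not taken. These 2 counts are therefore description only. The differences lay mostly away from gene starts. Among the 95182 peaks farther than 1 kb from the start of a protein-coding gene, 17.0% were higher and 25.4% lower, whereas among the 17355 peaks within 1 kb 5.22% were higher and 10.0% lower.

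The peaks with the widest ratios, among those with at least 100 counts expected, lay mostly in introns or between genes. Among the higher ones, the second by ratio lay in an intron of Frmd4a at chr2:4060377-4061303 (GRCm38), at 22.7 CPM in astroglial nuclei, 7.59 in the middle and 1.04 in the bottom 50% (log2 4.44). The fourth lay in an intron of Trim9, 1705 bases from its start, at chr12:70282969-70284127 (29.6 against 1.42 CPM). The fifth, at chr10:56898754-56900476, was intergenic and nearest to Gja1, a gene of the choice, at a distance of 520527 bases. It stood at 36.3 against 1.76 CPM. In the opposite direction, a peak in an intron of Spock3 at chr8:63349541-63350401 stood at 0.134 CPM in astroglial nuclei (3 counts) and 6.48 in the bottom 50%, and an intergenic peak 5316 bases from the start of Dtx1, at chr5:120716792-120717694, stood at 0.134 and 6.37 CPM. All 10 peaks of widest ratio in each direction had the middle 40% between the other groups, a count with no background beside it.

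The 300 bases at the centre of these 3 higher peaks and of both lower peaks are printed to show the sequence under some of the widest differences, together with those of a peak in an intron of Slc7a10, an astrocyte gene described below, at chr7:35191237-35193397 (23.6 against 3.34 CPM, log2 2.82). The windows are chr2:4060690-4060989, chr12:70283398-70283697, chr10:56899465-56899764, chr8:63349821-63350120, chr5:120717093-120717392 and chr7:35192167-35192466, all GRCm38 and all on the + strand, in the order printed. Capitals mark TTGGCA, the core of the site of nuclear factor I (NFI) proteins, and the E-boxes CAGCTG and CAGATG, bound by basic helix-loop-helix factors, on either strand.
Peak in Frmd4a, higher: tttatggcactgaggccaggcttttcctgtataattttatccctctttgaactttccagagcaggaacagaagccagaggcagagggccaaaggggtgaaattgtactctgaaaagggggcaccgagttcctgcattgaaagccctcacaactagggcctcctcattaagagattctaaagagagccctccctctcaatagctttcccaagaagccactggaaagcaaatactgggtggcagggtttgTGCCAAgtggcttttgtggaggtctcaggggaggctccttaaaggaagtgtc
Peak in Trim9, higher: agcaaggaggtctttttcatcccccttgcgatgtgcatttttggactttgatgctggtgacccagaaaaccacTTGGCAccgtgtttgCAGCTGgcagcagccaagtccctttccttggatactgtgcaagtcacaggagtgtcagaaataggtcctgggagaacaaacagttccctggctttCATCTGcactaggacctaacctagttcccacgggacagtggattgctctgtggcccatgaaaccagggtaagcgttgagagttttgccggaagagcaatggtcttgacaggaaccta
Peak nearest to Gja1, higher: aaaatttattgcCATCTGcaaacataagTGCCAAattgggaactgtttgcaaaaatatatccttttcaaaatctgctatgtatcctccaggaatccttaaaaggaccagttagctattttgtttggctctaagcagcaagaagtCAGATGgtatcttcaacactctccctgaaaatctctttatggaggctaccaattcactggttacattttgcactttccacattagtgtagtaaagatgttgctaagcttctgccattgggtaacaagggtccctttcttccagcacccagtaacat
Peak in Spock3, lower: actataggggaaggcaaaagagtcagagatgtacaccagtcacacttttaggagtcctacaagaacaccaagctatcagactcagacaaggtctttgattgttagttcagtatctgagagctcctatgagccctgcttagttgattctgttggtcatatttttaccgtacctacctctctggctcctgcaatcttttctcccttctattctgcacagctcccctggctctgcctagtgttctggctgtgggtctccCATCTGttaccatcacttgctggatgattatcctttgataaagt
Peak near Dtx1, lower: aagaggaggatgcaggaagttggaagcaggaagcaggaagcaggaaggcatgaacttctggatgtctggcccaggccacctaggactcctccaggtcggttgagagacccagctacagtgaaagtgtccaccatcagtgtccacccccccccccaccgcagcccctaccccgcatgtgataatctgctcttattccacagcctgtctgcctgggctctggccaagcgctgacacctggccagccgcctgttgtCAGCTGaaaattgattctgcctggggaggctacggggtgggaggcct
Peak in Slc7a10, higher: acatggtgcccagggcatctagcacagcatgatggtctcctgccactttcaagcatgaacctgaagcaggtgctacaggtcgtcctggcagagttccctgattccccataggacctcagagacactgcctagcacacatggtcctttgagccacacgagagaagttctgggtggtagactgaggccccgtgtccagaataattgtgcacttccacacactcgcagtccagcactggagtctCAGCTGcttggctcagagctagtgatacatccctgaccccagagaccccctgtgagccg

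Of 8 windows read in this way, 6 from higher and 2 from lower peaks, the NFI core occurred in 3 higher windows, all printed, and an E-box in 3 higher and both lower windows. The 2 higher windows that are not printed held neither. So few windows, taken for their ratios, say nothing of the peaks as a whole. Over all peaks farther than 1 kb from a start, TTGGCA was found in the central 300 bases of 35.7% of higher peaks, 26.2% of lower peaks and 26.7% of all compared peaks. CAGATG, the E-box of Neurod and Olig factors, had the opposite order, in 20.3% of higher, 42.7% of lower and 29.3% of all peaks. CAGCTG, another E-box, was found in 3239 of 16180 higher peaks, 32.1% of lower and 24.7% of all, and CATATG in 3.53%, 7.25% and 5.29%. TAGGTCA, the site of ROR nuclear receptors, was found in 3.20% of higher and 1.71% of lower peaks against 2.31% of all, and TAATTA, a homeobox core, in 12.3%, 10.4% and 10.3%. The Sox motifs ACAATG (16.4%, 17.7% and 16.5%) and ACAAAG (29.6%, 27.8% and 27.4%) and the palindromic NFI site with a 5-base spacer (0.0927%, 0.116% and 0.110%) differed little.

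The remaining motifs were those of AP-1 (TGANTCA), in 10.1% of higher and 10.4% of lower peaks, Rfx factors (GTTGCC), in 13.9% and 11.8%, TEAD factors (GGAATG), in 19.0% and 17.2%, STAT factors (their palindrome), in 11.2% and 9.37%, Rbpj (TGGGAA), in 31.3% and 29.7%, and Gli factors (TGGGTGG), in 6.55% and 7.34%. Both strands were searched and the same bases could count for more than 1 motif. Mean GC content was 48.4% in higher, 48.1% in lower and 48.5% in all distal windows, so base composition was close to equal. Within 5 classes of GC content, higher peaks held TTGGCA in 31.5% to 37.7% and lower peaks in 22.3% to 28.0%. These are matches of letters and say nothing about which protein was bound.

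Gene activity was compared for 24936 genes with at least 50 counts expected in the astroglial nuclei. At least 1.5-fold higher were 2239 genes (8.98%), and at least 1.5-fold lower were 4111 (16.5%), with a median log2 ratio of -0.15. These percentages are the background for the counts of listed genes in this contrast. A peak was counted for every gene window it overlapped, so neighbouring genes can share counts.

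Astrocyte markers that the choice did not use were higher in astroglial nuclei. Of 20 such genes, 17 were at least 1.5-fold higher and none lower, with a median log2 ratio of 1.06. Mlc1, a membrane protein of astrocyte endfeet, stood at 51.0 CPM in astroglial nuclei, 32.4 in the middle and 11.0 in the bottom 50% (ratio 4.64, interval 4.12 to 5.22). Slc7a10, a transporter of small neutral amino acids such as serine, stood at 83.1, 40.8 and 21.8 CPM (3.82, 3.50 to 4.16). The GABA transporter gene Slc6a11 stood at 252, 150 and 88.7 CPM (2.84, 2.71 to 2.97). For all 3 genes the middle 40% lay between the other groups.

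Next in size were Atp13a4, a P-type ATPase (log2 1.36), Clu, which encodes the secreted chaperone clusterin (1.30), the gap junction gene Gjb6 (1.26), the acyl-CoA synthetase gene Acsbg1 (1.25) and the secreted protease gene Htra1 (1.25). Slc4a4, a sodium bicarbonate cotransporter, was at 1.11, and Aldh1l1, a folate enzyme widely used as a pan-astrocyte marker, was at 1.07 (283 against 134 CPM). The genes that did not pass 1.5-fold were S100b, a calcium-binding protein (33.5 against 24.6 CPM, log2 0.45, and -0.39 over its promoter alone), the cell adhesion gene Hepacam (48.2 against 38.1, log2 0.34) and the glutamine synthetase gene Glul (73.9 against 78.2, log2 -0.08). Glul thus lay slightly above the median of all genes, and scaling by that median turns its sign. A gene's sum can hide single peaks. Of the 3 S100b peaks, 1 in an intron was at least 2-fold higher (13.9 against 1.51 CPM) and none lower. Over all compared peaks, 15.2% were higher and 23.01% lower.

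Genes of glutamate, potassium and water handling, some of them also in the astrocyte list, were higher for 11 of 17 with none lower, and their median log2 ratio was 0.72. After Mlc1, the widest ratio was that of Grm3, a metabotropic glutamate receptor, at 237 CPM in astroglial nuclei, 133 in the middle and 76.3 in the bottom 50% (log2 1.63). Slc6a11 came next, followed by Gjb6. Kcnj10, the inward rectifier that carries potassium into astrocytes, was 1.65-fold higher (249 against 151 CPM), and Slc38a3, which exports glutamine, was 2.25-fold higher.

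Markers of NSCs and radial glia were higher for 8 of 16 with none lower (median log2 0.55). Tnc, an extracellular matrix protein of radial glia, was highest by ratio (91.4 against 34.6 CPM, log2 1.40), then the fatty acid binding protein gene Fabp7 (0.95), the transcription factor gene Pax6 (0.91) and Hopx (0.76), a marker of dentate NSC precursors. Nes itself, whose regulatory elements drive the sorted reporter, stood at 201 CPM against 179 (log2 0.16). The list thus held both genes near the bottom 50% and genes that were higher, and the label astroglial covers nuclei with open NSC genes as well as astrocyte genes.

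Transcription factors of glia and of the dorsal telencephalon were higher for 9 of 15 with none lower (median log2 0.66). Among the widest ratios were those of the homeobox gene Dbx2 (104 against 41.3 CPM, log2 1.33), of Rfx4, an Rfx factor of neural progenitors and astrocytes (0.95), and of Pax6. Of the Sox factors, 4 of 13 were higher and 1 lower. Sox1 (log2 1.27), a factor of neural precursors, and Sox8 (1.08), a relative of Sox9, were higher, and Sox10, the oligodendrocyte lineage factor, stood at 30.5 against 113 CPM (-1.89). Of the 4 NFI genes only Nfia passed 1.5-fold (755 against 450 CPM, log2 0.75), while Nfib (0.39), Nfix (0.30) and Nfic (0.04) did not.

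In the Hedgehog pathway, 3 of 11 genes were higher and none lower (median log2 0.42). These were the transcription factor genes Gli3, at 272 CPM in astroglial nuclei, 170 in the middle and 103 in the bottom 50% (log2 1.40), and Gli2 (409 against 196, log2 1.06), and the co-receptor gene Boc (0.77). The pathway targets Gli1 (0.25) and Ptch1 (0.42) did not pass 1.5-fold. Of the 9 Ptch1 peaks compared singly, 4 were at least 2-fold higher (15.2% of all compared peaks) and 2 lower (23.01% of all). Among BMP receptors, Smads and Id factors 5 of 14 were higher and none lower (median 0.43), led by the receptor gene Bmpr1b (159 against 73.3 CPM, log2 1.11), the inhibitory Smad6 (1.10) and the Id genes Id3 (0.76) and Id2 (0.72), whose proteins block basic helix-loop-helix factors.

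In the Notch pathway, 4 of 16 genes were higher (8.98% of all genes) and 2 lower (16.5% of all genes), with a median log2 ratio of 0.36. The count of lower genes is thus near the share over all genes. The receptor gene Notch2 (373 against 184 CPM, log2 1.02) and Lfng, which modifies Notch receptors (154 against 60.8, log2 1.34), were higher. The ligand genes Jag2 (13.9 against 34.6, log2 -1.31) and Dll3 (28.3 against 66.1, log2 -1.22) were lower, while the ligand genes Jag1 (log2 0.36) and Dll1 (-0.37) did not pass 1.5-fold. Of FGF and EGF receptors and their feedback genes, 4 of 13 were higher and none lower (median 0.24), with Fgfr3 at 0.92, Egfr at 0.91, and Etv4 and Fgfrl1 both at 0.67.

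Lipoprotein, cholesterol and fatty acid genes were higher for 5 of 17 and lower for 1 (median log2 0.32). Besides Clu and Acsbg1, the widest ratios were those of Apoe, the main lipoprotein of astrocytes (55.2 against 29.5 CPM, log2 0.91), and of Lpl, lipoprotein lipase, which was lower (7.50 against 15.9, log2 -1.08). The cholesterol synthesis genes Hmgcs1 (0.02) and Sqle (0.03) did not pass 1.5-fold. Of 8 cilium genes and their Rfx regulators, Rfx4 alone passed 1.5-fold (8.98% of all genes were higher), and the median was 0.05.

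**Figure D2:**
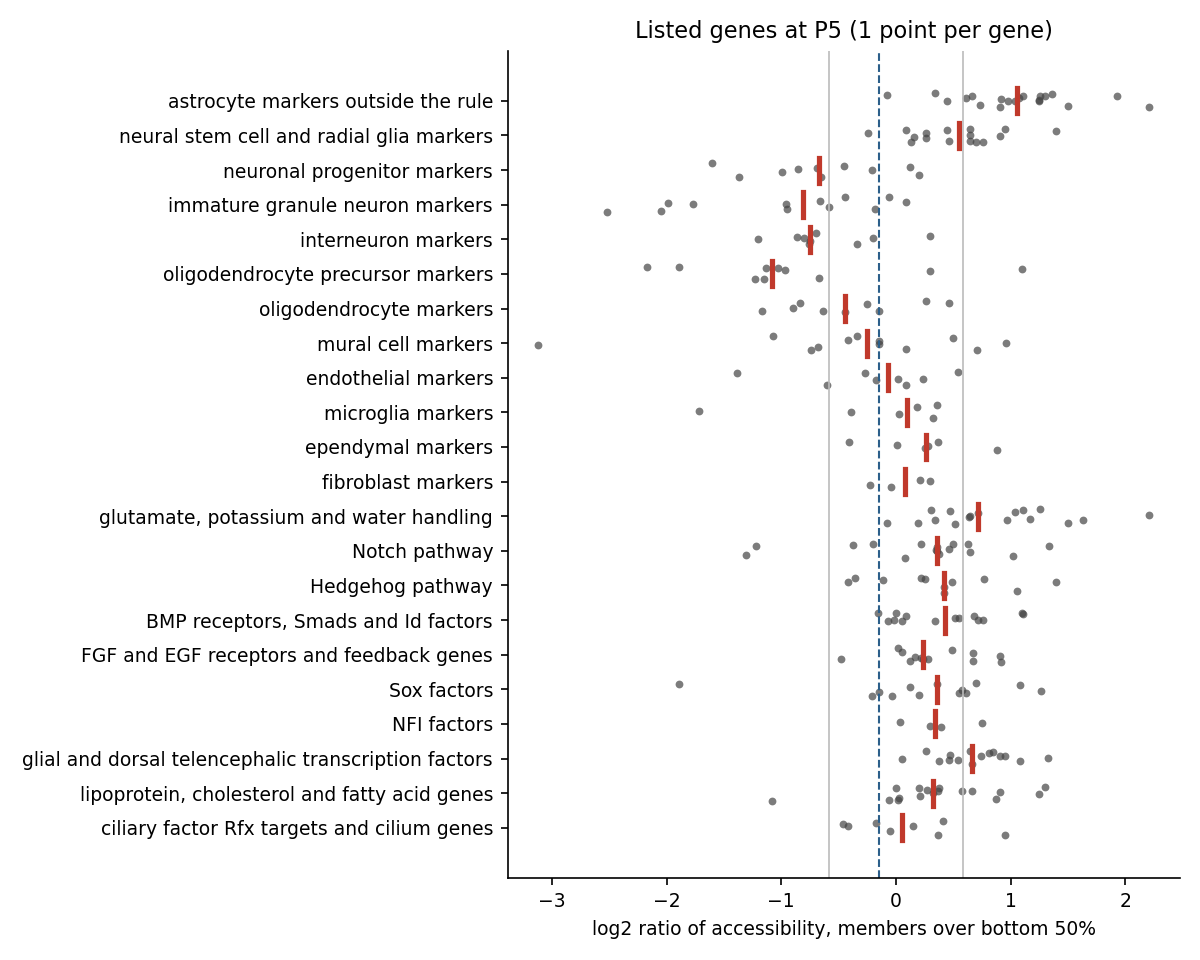
Log2 ratio of gene activity, astroglial nuclei over the bottom 50% (horizontal axis), for the genes of each marker and pathway list (rows), 1 point per gene. Red bars mark list medians, the dashed line the median of all genes and grey lines 1.5-fold. Astrocyte markers outside the choice centre on 1.06 and oligodendrocyte precursor markers on -1.08, with Olig1 apart from the rest of its list at 1.10.

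Of the markers of other cells that the sort can hold, those of neuronal and oligodendrocyte lineages had medians below 0, and those of microglia, ependymal cells and fibroblasts had medians just above 0. Neuronal progenitor markers were lower for 6 of 10 and higher for none (median log2 -0.67), led by the proneural genes Neurod1 (21.2 against 64.3 CPM, log2 -1.60) and Neurod4 (-1.37), and by Insm1 (-0.99) and Eomes (-0.85), both factors of intermediate progenitors. Immature granule neuron markers were lower for 7 of 12 and higher for none (median -0.81). Neurod6 stood at 2.10 CPM against 12.3 (log2 -2.52), the tubulin gene Tubb3 at 13.8 against 57.4 (-2.05), Stmn2 at 9.25 against 36.9 (-1.99) and Neurod2 at 7.32 against 25.2 (-1.77), whereas Prox1, the granule neuron factor, was nearly level (135 against 140, log2 -0.06). Interneuron markers were lower for 6 of the 9 compared (median -0.75).

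Oligodendrocyte precursor markers were lower for 8 of 10, with a median of -1.08. The receptor gene Gpr17, a marker of committed precursors, stood at 15.9 CPM against 71.9 (log2 -2.17), and Sox10 and Pdgfra (log2 -1.23), which define the lineage, were lower too. Olig1 and Olig2, neighbouring basic helix-loop-helix genes of the same lineage, went the other way, with Olig1 at 76.2 CPM in astroglial nuclei, 47.5 in the middle and 35.6 in the bottom 50% (ratio 2.14, interval 1.97 to 2.32), and Olig2 at 189, 165 and 153 CPM (ratio 1.23). Oligodendrocyte markers were lower for 4 of 9 (median -0.44).

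Of 12 mural cell markers, 2 were higher and 4 lower (median log2 -0.25). Higd1b, a pericyte gene, was lowest (1.07 against 9.70 CPM, log2 -3.12) and the smooth muscle gene Tagln (21.6 against 11.1, log2 0.96) and the receptor gene Pdgfrb (117 against 71.6, log2 0.71) were higher. Endothelial markers (2 of 8 lower, median -0.07), microglia markers (1 of 6 lower, median 0.10), ependymal markers (1 of 6 higher, median 0.26) and fibroblast markers (none of 4 past 1.5-fold, median 0.08) mostly did not pass 1.5-fold. The defining endothelial gene Tie1 and the microglia genes C1qb, Aif1 and Trem2 had no P5 peak in their windows and so no value. The myelin gene Mog, with 1 peak, had no count among the 22389624 of astroglial nuclei.

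Summed over whole lists, the levels moved along the full range of the share. From the lowest to the highest decile of the 6785 nuclei, the astrocyte markers outside the choice went from 1065 to 2351 CPM and NSC and radial glia markers from 1336 to 2206. From the ninth to the last decile the astrocyte list went from 1936 to 2351 CPM, while the NSC list stood at 2164 and 2206. Oligodendrocyte precursor markers were highest in the fourth decile (1111 CPM) and ended at 631, and granule neuron markers were highest in the same decile (1275) and ended at 886. Mural markers were highest in the first decile (477 CPM), lowest in the sixth (283) and at 363 in the last.

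**Figure D3:**
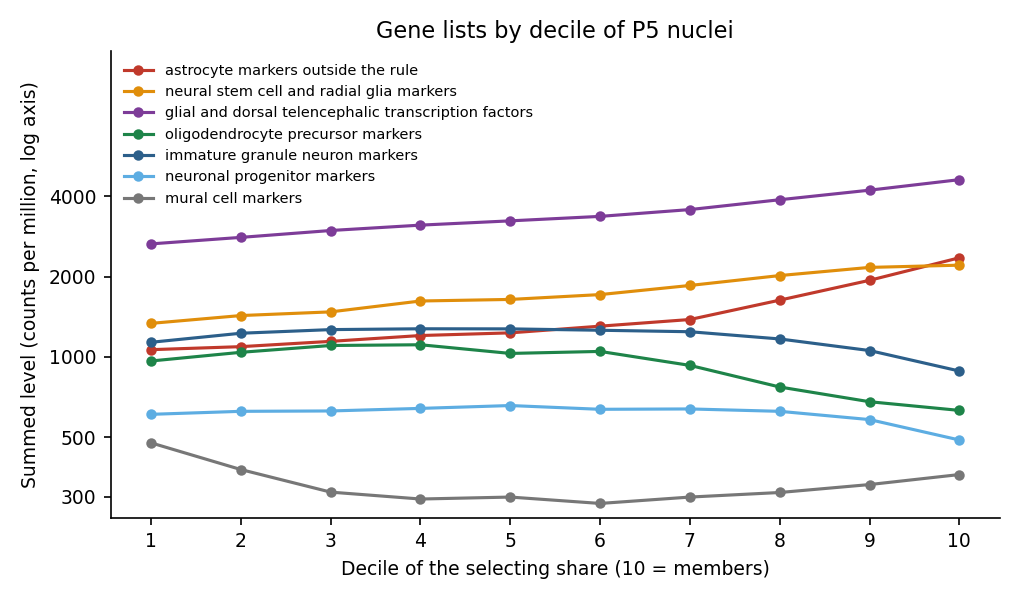
Summed gene activity (CPM, vertical axis) of gene lists in deciles of the P5 nuclei ordered by the share over the 5 chosen genes (horizontal axis, 10 marks the astroglial nuclei, called members). The vertical axis is logarithmic. Astrocyte markers reach 2351 CPM and NSC and radial glia markers 2206 in the last decile, and precursor and granule neuron markers decline in the upper deciles.

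Over single nuclei the astrocyte list ran from 1366 to 3189 CPM between the outer deciles, with a median of 2364, against 659 to 1670 with a median of 1092 in the bottom 50%. The groups therefore overlapped nucleus by nucleus. For the oligodendrocyte precursor list the spread was wider among the bottom 50% (231 to 2111 CPM, median 781) than among astroglial nuclei (216 to 1038, median 586).

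The 6785 nuclei were also clustered without the peaks over the 5 chosen genes. Of 12 clusters, cluster 1 (1267 nuclei) held 523 astroglial nuclei, or 77.1% of them, and 78 nuclei of the bottom 50%. Its astrocyte markers outside the choice had a median log2 ratio of 1.01 to all other nuclei, with 16 of 20 at least 1.5-fold higher (9.77% of all genes), so this cluster was astrocyte-like. Cluster 8 (293 nuclei) held 50 astroglial nuclei, and its highest list was that of NSC and radial glia markers (median 0.47, 5 of 16 higher, against 5.88% of all genes). Another 37 lay in cluster 5, where neuronal progenitor markers were highest, and 22 in cluster 2, where oligodendrocyte precursor markers were. Clusters 7 (mural markers), 9 (oligodendrocyte markers at a median log2 of 1.22, precursor markers at 0.77) and 10 held none. Astroglial nuclei made up 41.3% of cluster 1 (exact binomial interval 38.6 to 44.0) and 17.1% of cluster 8 (12.9 to 21.9). In cluster 12, a set of 49 nuclei where ependymal markers were the highest list (3 detected), 9 were astroglial (18.4%, 8.76 to 32.0). The intervals of these shares treat nuclei of 1 library as independent, though members were a fixed 10% of the same nuclei. They hold no spread between animals.

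**Figure D4:**
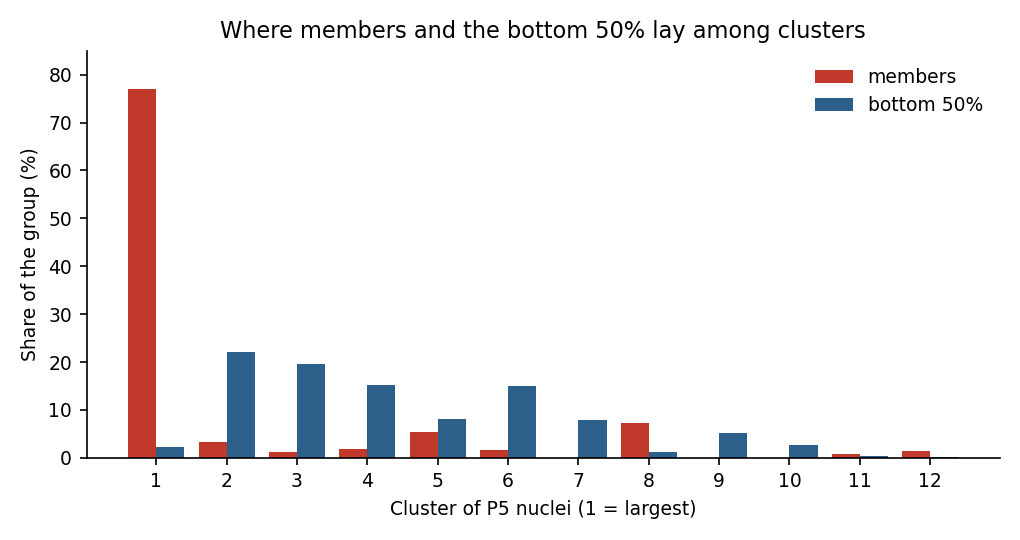
Share of the astroglial nuclei (members, red) and of the bottom 50% (blue) in each cluster of P5 nuclei, in percent of the group (vertical axis). Cluster 1 holds 77.1% of astroglial nuclei and 2.30% of the bottom 50%, while clusters 7, 9 and 10 hold no astroglial nucleus.

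The cut through cluster 1 separated nuclei that were alike in most other genes. Its 523 astroglial nuclei, set against its other 744 nuclei, differed by 0.64 to 0.83 on the log2 scale in the 5 chosen genes, as the cut requires, but none of the 20 other astrocyte markers differed by 1.5-fold. All 20 were nevertheless above 0, between 0.03 for Fgfr3 and 0.47 for Gjb6, with a median of 0.16. Of all 23916 genes compared, 9843 were above 0, with a median of -0.03. Also above 0 were all 15 glial and dorsal telencephalic transcription factors and 16 of 17 glutamate, potassium and water handling genes. Of 9 neuronal progenitor markers 0 were above 0. Of 23916 genes compared, 139 (0.581%) were at least 1.5-fold higher and 395 (1.65%) lower. Granule neuron markers were lower for 4 of 12 and interneuron markers for none of 9.

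The 50 astroglial nuclei in cluster 8 differed from those in cluster 1. Olig2 stood at 27.5 CPM in cluster 8 and 209 in cluster 1 (ratio 0.135, interval 0.0833 to 0.198), and Olig1 at 12.0 and 89.7 CPM. The growth factor receptor gene Egfr stood at 25.1 and 115 CPM. Astrocyte markers were lower in cluster 8 for 10 of the 19 compared (6.44% of all genes), with a median log2 ratio of -0.61. Among them, Atp13a4 stood at 20.3 against 78.5 CPM and Slc7a10 at 36.5 against 97.6. Of the NSC and radial glia markers, 3 of 16 were higher in cluster 8 and none lower (median 0.16), and of Hedgehog genes 2 of 10 and none. Genes higher in cluster 8 included Tfap2c, a transcription factor of progenitors (142 against 32.7 CPM, ratio 4.37), the lysophosphatidic acid receptor gene Lpar1 (93.4 against 39.2), Gli1 (109 against 51.1) and Hopx (192 against 114). Of all 12434 genes compared between these sets, 531 (4.27%) were at least 1.5-fold higher in cluster 8 and 801 lower. The pooled depth of the 50 nuclei was 1670932 counts, which widens these intervals, and the values describe clusters drawn from the same nuclei.

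The 105 astroglial nuclei in the other clusters were pooled. Of these, 6 lay in cluster 11, where astrocyte markers were the highest list (median log2 0.40) and oligodendrocyte precursor markers the next (0.32). The nuclei of cluster 11 had a median depth of 61525 counts. Against those of cluster 1, neuronal progenitor markers were higher for 6 of 9 (7.46% of all genes, median log2 1.31), oligodendrocyte precursor markers for 7 of 9 (1.07) and interneuron markers for 3 of 5 (0.88), while astrocyte markers were lower for 14 of 20 (6.57% of all genes, median -0.82). The median depth of all 105 was 27390 counts against 33138 in cluster 1, and their median share over the chosen genes was 0.0924% against 0.0987%. Whether some of them are pairs of nuclei was not tested. With the astroglial nuclei of cluster 1 alone, an alternative chosen after seeing the data, 15849 peaks were higher and 25931 lower than in the bottom 50%, and 18 of 20 astrocyte markers were higher (9.54% of all genes).

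The 10 genes of widest activity ratio over all genes, with at least 200 counts expected, were led by Apoc1, an apolipoprotein gene beside Apoe (64.3 against 6.14 CPM, log2 3.39, chr7:19689481-19692660). It was followed by Gm42790 (3.38), Gm42601 (3.13), Gm13110 (3.01), Gm16013 (2.90), 2900052N01Rik (2.71), AC115970.1 (2.71), Gm43963 (2.70), Trp63 (2.48) and Gm37964 (2.44), most of them not protein-coding, with 1 to 7 peaks in their windows. The 10 lowest were Gm33969 (-3.61), Gm10389 (-3.41), the amino acid transporter gene Slc36a3 and its antisense partner Slc36a3os, which share the same peak (both -3.20), Gm49668 and Gm37631 (both -3.16), Gm14280 (-2.88), 4933409F18Rik (-2.62), Gm48248 (-2.61) and Gm29926 (-2.52).

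Among protein-coding genes, a subset chosen after the values were seen, Apoc1 and Trp63 were followed by Slco1c1, a thyroid hormone transporter (85.3 against 15.9 CPM), Paqr6, a membrane progestin receptor (70.5 against 13.2), Rnase13, Myh15, Mlc1, the alanine aminotransferase gene Gpt, the cholesterol acyltransferase gene Lcat (51.9 against 11.6) and Itih3. In P5 RNA, described next, Slco1c1 stood at 200 CPM in the astroglial cells, Lcat at 164 and Apoc1 at 50.4, and Trp63 and Rnase13 had no UMI there. In the RNA cells of the lower 50%, Trp63 had 17 UMIs and Rnase13 none, too few in either case to compare the genes in RNA.

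The same rule was applied to the P5 single-cell RNA-seq (scRNA-seq) library of the same sort, which measured other cells. Cells were kept from 1000 unique molecular identifiers (UMIs) and 500 genes upward where mitochondrial genes took 10% of UMIs or less. Of these 13684 cells, the 1368 with the highest share of UMIs from the 5 genes were set against the 6842 at or below the median share. Of 12011 genes with at least 20 UMIs expected, 1102 were at least 2-fold higher (9.17%) and 2346 at least 2-fold lower (19.5%). Astrocyte markers outside the choice were higher for 19 of 20 (median log2 2.65), and genes of glutamate, potassium and water handling for 16 of 16 (2.43). RNA ratios were wider than the activity ratios of the same lists.

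Several genes had wide ratios in RNA and narrow ones in gene activity, which sums the peaks of a gene's window and leaves out others. Glul stood at 1376 CPM in the top cells and 219 in the others (log2 2.65), with the activity of 73.9 and 78.2 CPM given above. The cholesterol transporter gene Abca1 (log2 2.59 in RNA, 0.20 in activity) and Hmgcs1 (1.72 and 0.02) had the same pattern, and lipoprotein, cholesterol and fatty acid genes as a list were higher for 15 of 17 in RNA and 5 of 17 in activity. These genes were singled out after their values were seen. Of the 9 Abca1 peaks compared, 1 was at least 2-fold higher and 2 lower. Both counts are near the shares over all compared peaks (15.2% higher and 23.01% lower).

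Some listed genes had ratios of opposite sign that did not pass both thresholds. Olig1 RNA stood at 623 CPM in the top cells and 1162 in the others (log2 -0.90), against an activity ratio of 1.10, and Olig2 RNA at 160 and 398 CPM (-1.31), against 0.30. Sox8 (RNA -0.44, activity 1.08), Nfix (-1.50 and 0.30) and Emx1 (-1.47 and 0.26) were of the same kind. NSC and radial glia markers were higher in RNA for 7 of 16 and lower for 4, with Tnc at 3.14, Vim at -1.13 and Tfap2c at -1.52. Mural markers were lower in RNA for 10 of 12 and higher for 1, Notch3, and Pdgfrb RNA stood at 63.0 against 80.1 CPM with an activity ratio of 0.71. Past both thresholds were Tagln, higher in activity (log2 0.96) and lower in RNA (6.16 against 24.8 CPM, log2 -1.98), and the ependymal marker Rarres2 (0.88 and -1.10).

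Over the 11517 protein-coding genes compared in both assays, 579 were at least 1.5-fold higher in activity. Of these, 361 (62.3%) were at least 2-fold higher in RNA, against 9.11% of all, and 22 were at least 2-fold lower, led by activity ratio by Crip3 (log2 1.80 in activity, -3.29 in RNA) and the crystallin gene Crybb1 (1.61 and -2.09). The 361 genes were 34.4% of the genes higher in RNA. Of 894 genes lower in activity, 633 (70.8%) were lower in RNA, against 19.3% of all, and made up 28.5% of the genes lower in RNA, and 4 were higher. Those 4, named after their values were seen, were Islr, the oxysterol hydroxylase gene Cyp7b1, the membrane glycoprotein gene Gpm6a and the potassium channel gene Kcna6. Spearman's rho of the log2 ratios was 0.48 across these genes, which are not independent replicates and share 1 library per assay.

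**Figure D5:**
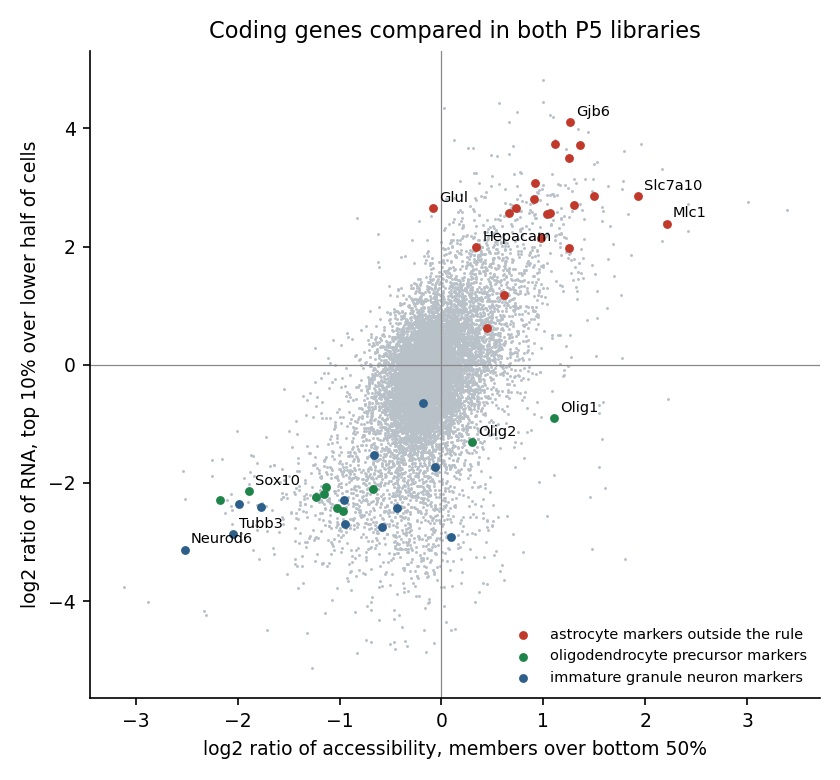
Log2 ratio in P5 RNA, top cells over cells at or below the median share (vertical axis), against log2 ratio of gene activity in astroglial nuclei over the bottom 50% (horizontal axis), per protein-coding gene. Coloured points are astrocyte, oligodendrocyte precursor and immature granule neuron markers. The upper right holds 361 genes past both thresholds and the lower left 633, and Glul lies high in RNA at an activity ratio of -0.08.

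The rule was applied in the same way to the 12w and 24w libraries, which gave 1002 of 10029 and 454 of 4545 nuclei. The bottom 50% of the adult libraries was rich in mural cell markers. In order of age these summed to 345, 2562 and 2861 CPM in the bottom 50% (over 52, 78 and 76 peaks), against 363, 457 and 504 CPM in the astroglial nuclei, and the median share over the chosen genes in the bottom 50% was 0.0229%, 0.00706% and 0.00395%. The size of a ratio is therefore not comparable between P5 and the adult libraries, and the ratios below are each library's own. At 12w, 28.1% of 25211 compared genes were at least 1.5-fold higher and 20.04% lower in the astroglial nuclei, and at 24w 26.02% of 23309 were higher and 20.6% lower. Astrocyte markers outside the choice were higher for 14 of 20 and lower for 2 at 12w (median log2 2.80), and higher for 16 and lower for 2 at 24w (3.22). Summed over the list, the levels were 2351, 1891 and 2040 CPM in the astroglial nuclei in order of age and 1153, 1333 and 1317 in the bottom 50%. These sums were taken over 159, 148 and 120 peaks. Atp13a4 was among the lower ones at both ages (-2.27 and -2.09) and was higher at P5 (1.36). The log2 ratio of Mlc1 was 2.21, 5.04 and 7.23 in order of age.

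All 12 mural markers were lower in astroglial nuclei at 12w (median log2 -2.42) and at 24w (-2.53), against 4 of 12 at P5. Rgs5, a pericyte gene, was at -2.94 at 12w and -2.82 at 24w against -0.15 at P5. Immature granule neuron markers were higher in adult astroglial nuclei for 12 of 12 at 12w and 11 of 11 at 24w, and lower for 7 of 12 at P5, with Dcx at -0.96, 2.89 and 4.70 in order of age. Summed over the granule neuron list, the bottom 50% stood at 1241, 333 and 182 CPM and the astroglial nuclei at 886, 1220 and 1000. These sums were over 230, 224 and 163 peaks. The median astroglial nucleus stood at 848, 1096 and 842 CPM, so at 24w it was close to P5. Neuronal progenitor markers were higher for 8 of 10 at both adult ages (median log2 2.30 and 3.40). Interneuron markers were higher for 9 of 9 at both (1.47 and 1.76). In each library astroglial is thus the name of the selection, which also held counts over neuronal lineage genes. Peaks were called in each library by itself, so the 3 ages stand side by side without a test.

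Of 937 protein-coding genes higher at P5 and compared at 12w, 564 (60.2%) were higher at 12w, against 24.8% of all, and these were 14.3% of the genes higher at 12w. At 24w the count was 522 of 886 (58.9%, against 24.5% of all), or 13.9% of the genes higher there. Of the 1923 genes lower at P5 and compared at 12w, 428 (22.3%) were lower at 12w (14.8% of all) and 945 were higher. At 24w, 425 of 1665 (25.5%, against 2297 of all 15300) were lower and 747 higher. Over all genes compared, the log2 ratios at P5 had a Spearman correlation of 0.03 with those at 12w (15877 genes) and 0.05 with those at 24w (15300), across genes, which are not independent replicates. Gli3 was higher at each age (log2 1.40, 2.00 and 2.12 in order of age), as were Bmpr1b (1.11, 3.49 and 5.25), Dbx2 (1.33, 3.99 and 6.43) and Lfng (1.34, 2.62 and 3.09). Grm3 was higher at P5 (1.63) and stood at -0.58 at 12w and -0.52 at 24w. The comparison nuclei of the adult libraries were rich in mural cell markers, and those at P5 were not. The overlaps, correlations and ratios in this paragraph therefore do not measure a change with age in the astroglial nuclei, which was not tested.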

How the data were processed

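Per the labels and the study's methods, the authors sorted EGFP+ dentate gyrus cells of P5, 12w and 24w Nestin-EGFP mice, prepared 10x Genomics libraries and aligned reads to mm10 (Cell Ranger 2.2.0 and Seurat 4.1.0 in the submitters' processing notes, software version 1.2.0 in the headers of the scATAC-seq matrices). The deposited scATAC-seq files hold counts per peak and barcode and the deposited scRNA-seq files hold UMI counts per gene and barcode, both without normalization and with 1 library per age. P5 had 143199 peaks, 509656 barcodes and 256859756 counts. As 89.1627% of nonzero scATAC-seq values were even, both ends of a fragment appear to be counted, and intervals were computed on counts divided by 2.

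Nuclei were selected and pooled as described above (Python 3.11.15, numpy 2.4.6, scipy 1.17.1, pandas 2.3.3). Levels are counts per 1000000, and 1 count was added to each pool before ratios. A feature was compared when at least 20 (peaks, RNA) or 50 (genes) counts were expected in the selected cells at equal levels. Gene positions came from GENCODE (GRCm38), whose chromosomes held all P5 peaks, and sequences from the RefSeq copy of that build. Clusters used TF-IDF on binarised peaks, components 2 to 30, 20 neighbours and Leiden at resolution 0.5 (scikit-learn 1.9.0, leidenalg 0.10.2). The calling of peaks and the intervals of ratios were tested on simulated pools of counts, and the other steps were not. Members and gene lists were chosen with earlier results of these data known. From each list the genes of largest absolute ratio were named, up to 4 (10 for astrocyte markers), with the 10 genes (at least 200 counts expected) and 10 peaks (at least 100) of widest ratio in each direction. Other genes named were picked after their values were seen. Some genes and a peak that the rule would name are not reported here.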

Additional observations from a re-analysis of the deposited data

How the results depend on the processing

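No paired analysis was possible because each age has 1 library and no result comes from a test. The number of peaks compared changed with the setting, and it is given beside each count of higher peaks. The 17086 higher of 112537 became 10386 of 80723 with the top 5% and 10215 of 84901 when nuclei with the peak were counted. They became 9213 of 73121 at 50 expected counts and 26388 of 143150 with no filter on low counts. At 1.5-fold they were 26139 of 112537, and against the middle 40% 6799 of 109903. Of the same compared peaks, the 25899 lower became 14036 against the middle 40%, 15343 when nuclei with the peak were counted and 14009 at 50 expected counts. Against the middle 40%, 9 of 20 astrocyte markers were higher, not 17. The share of all genes higher against the middle 40% was not taken, so the 9 have no background beside them. The peak counts under the other alternatives stayed within 1.5 times. The median log2 ratio over compared peaks was -0.17, and scaling it to 0, which moves every ratio up, gave 20428 higher and 22401 lower peaks. Of 701 recomputed values of 102 genes, all of them past 1.5-fold to begin with, 698 kept their direction and 601 their side of 1.5-fold. Among these genes the sign turned for Lpar1 against the middle 40% (-0.001) and, with promoters alone, for Lpar1 (-0.015) and Acsl6 (-0.067).

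Which nuclei are chosen depends on the genes used. Leaving out Slc1a3 kept 479 of the 678 nuclei and leaving out Aqp4 kept 613, with 15176 and 16721 higher peaks. Thinning each nucleus to 10000 counts before taking the share kept 463 nuclei (68.3%), with 14827 higher and 21178 lower peaks. A share taken over the 20 other astrocyte markers kept 313 (46.2%), with 18257 higher and 30700 lower peaks, and 86.2% of the original higher peaks were among them. The share of a nucleus rests on few counts (39 for the last nucleus kept), and with 1 library the spread between animals is unknown. Over all listed genes, 16 of 202 had the opposite sign with promoters alone, among them S100b (0.45 and -0.39), Fgfr1 (0.49 and -1.11) and Grm5 (0.31 and -0.57).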
